A study of Mus musculus with 2 samples.

Results

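The regions described here are the first 100 kb of assembled sequence of mouse chromosomes 9 and 11, from position 3000001 to 3100000 of the build mm9. They were chosen by position, and with their high read counts known, so the number of reads that chose them is a description and was not tested. The deposited table lists cytosines with the reads assigned to them as signal of 5-hydroxymethylcytosine (5hmC). Every listed cytosine of either interval was taken, whatever its class. This gave 1623 sites on chromosome 9 and 5823 on chromosome 11, together 7446 of the 13025343 in the table. The DNA came from E14, an established mouse embryonic stem cell line, at passage 12. The 2 libraries formed 1 group, were made in the same way and share 1 count column, so no value below has a replicate error. The whole table held 176006227 reads, with a median of 9 per site.

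Mouse chromosomes carry the centromere at one end, and the assembly begins on the far side of an unsequenced placeholder for it. The DNA beside the centromere holds major satellite, a tandem repeat of a short unit that is packed as heterochromatin and is known to be methylated at CG. 5hmC is made from 5-methylcytosine by the TET enzymes, which embryonic stem cells express. In the assay, 5hmC is glucosylated and the enzyme AbaSI then cuts the DNA at a short distance from it. A read end thus lies near a modified cytosine but does not by itself show which cytosine it was. CG denotes a cytosine followed by guanine, and CH one followed by any other base (CA, CC or CT).

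The letters of the table give part of the sequence of the chromosome 9 interval, since each listed cytosine gives the letters of its own dinucleotide. They fix 2.86% of the letters of the interval, and no comparison with a satellite sequence is given here. The stretch shown first below is the 120 bases with the most letters known both there and 1 satellite unit (58 plus 176 bp, described with the spacing of sites below) further on, chr9:3000120-3000239 of mm9, and the second line is chr9:3000354-3000473. Both are plus strand, n marks a letter that no listed site gives, and capitals mark letters that are known and equal in both.
chromosome 9, copy 1: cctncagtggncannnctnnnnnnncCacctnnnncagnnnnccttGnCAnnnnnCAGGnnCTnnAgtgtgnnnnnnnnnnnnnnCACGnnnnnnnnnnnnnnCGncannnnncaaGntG
chromosome 9, copy 2: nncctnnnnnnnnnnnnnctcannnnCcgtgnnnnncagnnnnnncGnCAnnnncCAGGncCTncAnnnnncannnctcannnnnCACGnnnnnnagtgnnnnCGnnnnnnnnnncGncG
Of 30 letters known in both stretches, 19 were equal. The first stretch held 34 sites with 13493 reads and the second 31 sites with 14277 reads.

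For chromosome 11, 1 sequence from RefSeq could be placed on the listed sites. Of 32851 mouse promoter sequences and 1005 microRNA hairpins of RefSeq (GRCm38.p6), each slid along the interval on either strand, only the promoter of Gm33862 had at least 12 listed sites inside it and no site that contradicted its letters. It held 28 listed sites, and all 28 matched the letters of the promoter. The next longest run of sites that any sequence held with at most 1 contradiction was 11. On chromosome 9 no sequence was placed. Gm33862 is annotated as a long non-coding RNA gene that lies inside the span of Sfi1, a gene whose protein binds centrins at the centrosome, with Pisd-ps1 as the neighbour before it and Gm11400 after it. The match puts the window at chr11:3036829-3037128 of mm9, plus strand, 250 bases before and 50 bases after the annotated start. It is shown here because it is the stretch of the interval in which unlisted cytosines can be counted as well, and capitals mark CG.
Gm33862 promoter: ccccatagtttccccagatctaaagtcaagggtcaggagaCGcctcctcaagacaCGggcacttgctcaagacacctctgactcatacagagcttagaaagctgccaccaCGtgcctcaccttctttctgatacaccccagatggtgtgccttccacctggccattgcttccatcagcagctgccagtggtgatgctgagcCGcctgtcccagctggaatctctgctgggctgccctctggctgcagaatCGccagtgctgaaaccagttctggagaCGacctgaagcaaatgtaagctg

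Both intervals stood far above the same stretch of the other 17 autosomes in reads. Chromosome 9 held 454999 reads and chromosome 11 held 259466, which is 0.259% and 0.147% of all reads in the table. The other 17 autosomes held between 159 reads on chromosome 19 and 11728 on chromosome 18, with a median of 1934. Chromosome 9 was thus 235.3 times the median and 38.8 times the highest of them, and chromosome 11 was 134.2 and 22.1 times. Without the top 0.1% of sites of the whole table, those above 168 reads, chromosome 9 was 22.1 and chromosome 11 46.6 times the median, so the order of the pair turned. After chromosome 18, chromosomes 17 and 2 had the most, with 8739 and 6211 reads. In listed sites the order of the pair was the other way round, with 5823 on chromosome 11 against 1623 on chromosome 9, and 19 to 615 on the others. The sources used here do not say how reads that match several places were treated. The counts therefore say how many reads were placed here, and not how much 5hmC each copy of the sequence carries.

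**Figure D1:**
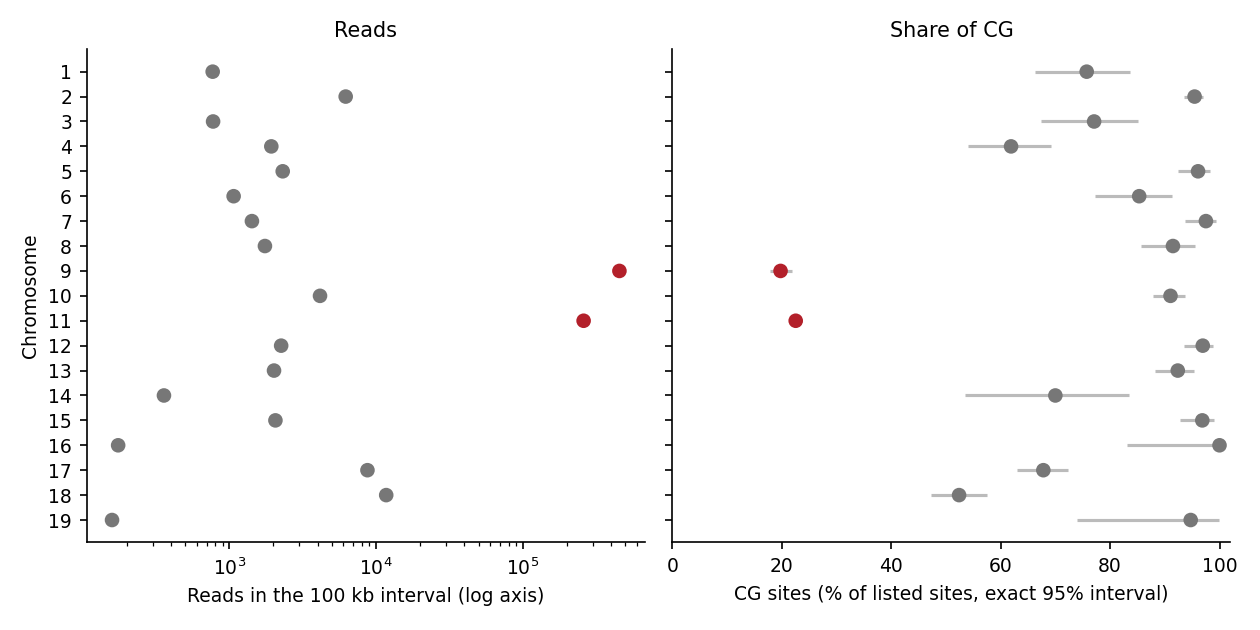
Reads in the first 100 kb of each autosome (left, log axis) and the share of listed sites that are CG (right, percent, bars are exact 95% intervals for counting error). Chromosomes 9 and 11, in red, have the most reads (454999 and 259466) and the lowest CG shares (19.8% and 22.5%).

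In both intervals most listed cytosines were CH, which on chromosome 11 turned when sites under 10 reads were left out. With a minimum of 10 reads per site CG made up 54.2% of its sites (52 to 56.3), and 19.6% of those on chromosome 9. Over all listed sites CG made up 19.8% of the sites on chromosome 9 (exact Clopper-Pearson 95% interval 17.9 to 21.8, counting error only) and 22.5% on chromosome 11 (21.5 to 23.6). On the other autosomes the share ran from 52.4% on chromosome 18 to 100% on chromosome 16, with a median of 91.5%, so all 17 lay above both. The whole table has 94.0%. In reads the intervals differed from each other. CG sites held 41.5% of the reads on chromosome 9, below all 17 others, and 77.3% on chromosome 11, above 2 of the 17.

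Chromosome 11 combined many CH sites of ordinary depth with CG sites of high depth. Its 4510 CH sites were 24.0 times the highest number on another autosome, 188 on chromosome 18, but their median of 6 reads lay within the 3 to 7 of the 16 other autosomes with a CH site. The lower quartile of the CH sites was 4 reads and their 95th percentile 26 reads, the latter as over the other 17 autosomes pooled. Its 1313 CG sites had a median of 72 reads, with quartiles of 18 and 184. The medians of CG sites on the other 17 ran from 6 to 10. The mean was 152.8 reads at CG and 13.1 at CH sites, a ratio of 11.7, where the highest ratio elsewhere was 3.67 on chromosome 17.

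On chromosome 9 both contexts were deep. The 1302 CH sites had a median of 29 reads (quartiles 10 and 122), above every other autosome, and the 321 CG sites a median of 48 (quartiles 10 and 323). The mean was 587.6 reads at CG and 204.6 at CH sites, a ratio of 2.87, which lay inside the range of the other autosomes. Without sites above 168 reads, a step that takes the highest values from both contexts, the ratio was 0.992, and on chromosome 11 it was 5.95. Sites above 168 reads numbered 384 on chromosome 9 (23.7% of its sites) and 411 on chromosome 11 (7.06%), against 0 to 14 on each other autosome.

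**Figure D2:**
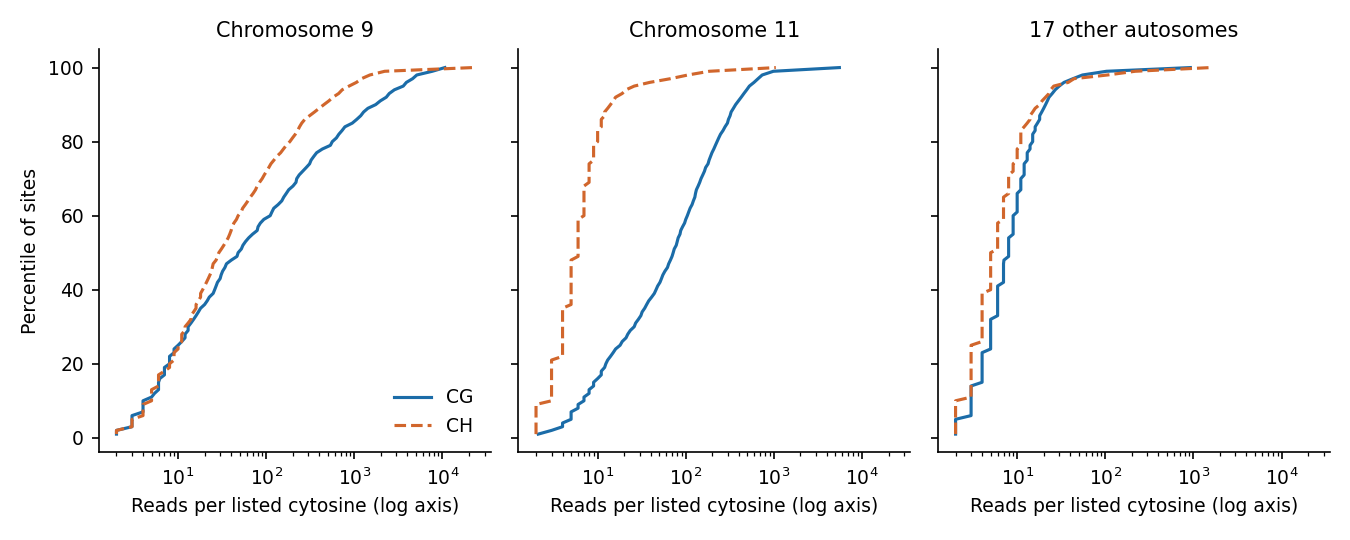
Reads per listed cytosine (log axis) against the percentile of sites, for CG (solid) and CH (dashed), in the interval of chromosome 9, of chromosome 11 and of the 17 other autosomes pooled. The CG and CH curves lie far apart on chromosome 11 (medians 72 and 6), while on chromosome 9 both reach far to the right (medians 48 and 29).

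Among CH sites CA was the most frequent on both chromosomes. On chromosome 9 CA made up 53.4% of the CH sites, CT 32.1% and CC 14.5%. CA also had the most reads there, with a mean of 275.3 against 134.5 at CT and 99.6 at CC. The medians were closer, at 32, 26 and 24 reads. The CA mean includes a pair of sites with 22118 reads each, described below. On chromosome 11 CA made up 46.9%, CT 40.3% and CC 12.7%, with means of 14.2, 11.7 and 13.2 reads, so the contexts there were nearly alike in depth. In the other 17 intervals pooled the shares were 53.9%, 36.2% and 9.88%. How many CA, CT and CC the intervals contain was not analysed here, so these are not rates per cytosine.

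Listed sites were unequally divided between the strands on chromosome 9. Plus-strand cytosines made up 58.9% of its sites (56.5 to 61.3), above all 17 other autosomes, and 57.1% of its reads. The excess was in CH, with 61.5% of sites on the plus strand, while CG had 48.3%. How many CH cytosines each strand contains was not analysed here, so these are not rates per cytosine. On chromosome 11 the plus strand held 51.1% of sites (49.8 to 52.3) and 50.5% of reads.

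The reads of both intervals lay mostly in 1 block. On chromosome 9 the first 40 kb held 1560 of the 1623 sites and 99.9% of the reads. CG sites there had a median of 100 reads and CH sites one of 29. The remaining 60 kb held 63 sites with 493 reads, 96.8% of them CG, with a CG median of 6 reads and a highest site of 34. The next 100 kb, outside the interval, held 189 sites with 1721 reads. These ends were placed after the values were seen. Inside the block 6 of the 40 bins of 1 kb had no listed site and 15 had at least 50. The other 31 empty bins of the interval lay in the 60 kb after it. The bin from 3002001 had the most reads, 77147 on 75 sites, followed by 58999 on 163 sites from 3000001 and 50516 on 88 sites from 3025001. These 3 bins held 41.0% of the reads. In the first and second of them CH sites held more reads than CG sites (61077 against 16070, and 42287 against 16712), and in the bin from 3025001 fewer (13737 against 36779). The CH reads of the bin from 3002001 include the pair of CA sites with 22118 reads each.

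Chromosome 11 showed the reverse arrangement, with a sparse first part and a dense remainder. Its first 30 kb held 365 sites and 9062 reads, with medians of 10 reads at CG and 6 at CH. The following 70 kb held 5458 sites and 250404 reads, or 78.0 sites per kb, with medians of 87 at CG and 6 at CH. The block had no sharp start, with 3395 reads in the bin from 3027001, 1961 in that from 3029001 and 1864 in that from 3030001. Past the end of the interval the block was over. The next 100 kb held 901 sites and 13635 reads, 92.7% of the sites were CG, and the median was 12 reads at CG and 4.5 at CH. The last site inside, at 3099990, had 19 reads and the first outside, at 3100016, had 21. Only 3 bins of 1 kb had no site and 59 had at least 50. The bin with the most reads, from 3093001, held 31180 reads on 193 sites, of which 114 were CG, and 54 of its 60 CG dyads were listed on both strands. Next came 22406 reads on 124 sites from 3050001 and 11357 on 118 sites from 3035001, and the 3 together held 25% of the reads.

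**Figure D3:**
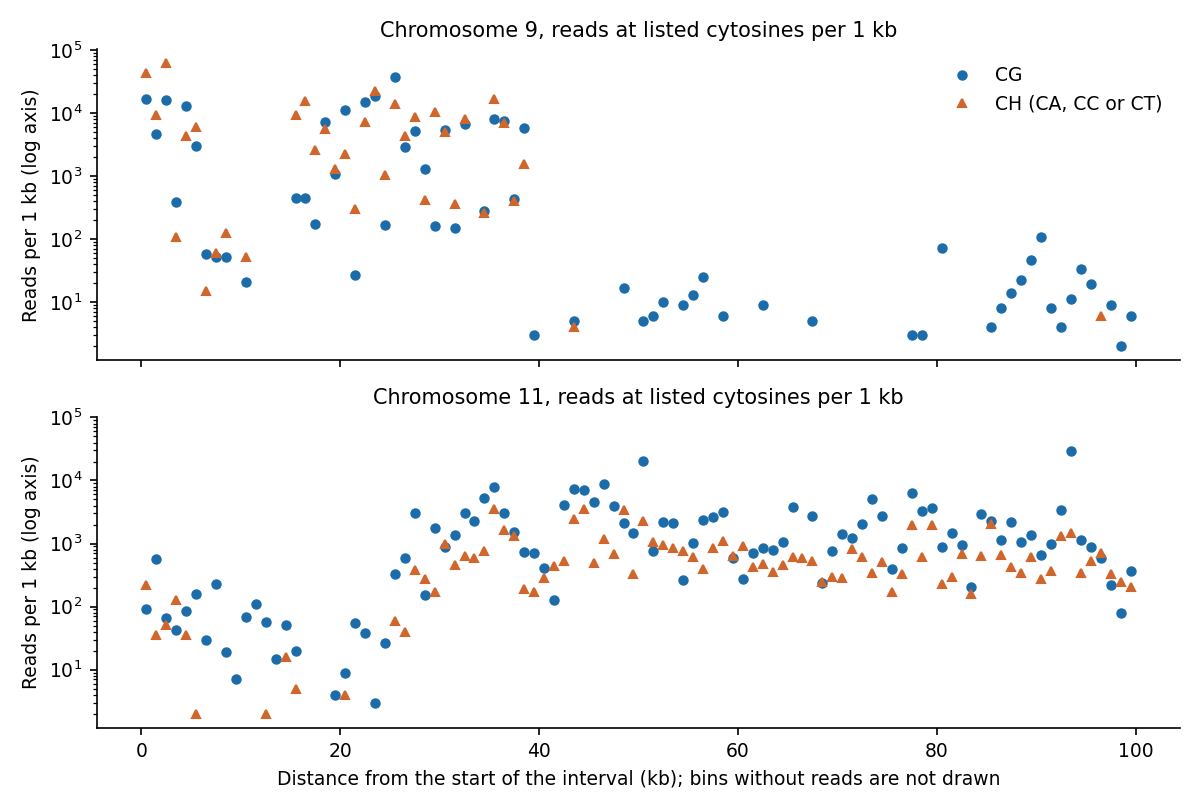
Reads at CG (circles) and CH (triangles) cytosines per bin of 1 kb against the distance from the start of the interval, with a log axis, for chromosome 9 (top) and chromosome 11 (bottom). On chromosome 9 the high bins end before 40 kb (99.9% of reads), and on chromosome 11 96.5% of reads lie past 30 kb and CG lies above CH in most bins, with CH above CG in 15 of 97.

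The spacing of sites on chromosome 9 showed a repeat with the length of the satellite unit. A distance of 58 bp occurred most often between sites of the same strand, with 288 pairs, or 17.7% of the sites, followed by 12, 28, 16 and 7 bp with 227, 227, 217 and 212 pairs. At the full unit of 58 plus 176 bp there were 155 pairs (9.55% of sites, 8.16 to 11.1), against 60 at a distance 1 bp shorter and 55 at 1 bp longer. When both sites also had to show the same dinucleotide, 58 bp led with 174 pairs and the full unit came second with 125, where the median over distances from 1 to 1000 bp was 12.

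The letters, which come from the same listed sites and are no separate evidence, gave the same distances. Over the 2856 letters that the listed sites fix on chromosome 9, 64.9% of 444 compared letters were equal at the full unit, the highest share of all 1000 distances. It was 26.9% at 1 bp less and 24.8% at 1 bp more, with a median of 26% over all distances. The next highest shares were 60.1% at 468 bp, 59.4% at 176 bp, 58.8% at 58 bp and 49.7% at 702 bp. Distances of 468 and 702 bp are 2 and 3 units, and 58 and 176 bp add up to 1 unit. Neighbouring letters come from the same site and are not independent, so no test was made.

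On chromosome 11 no distance stood out in this way. At the chromosome 9 unit length 26.3% of 1416 letters were equal, with a median of 26.9% and a highest value of 30.7% over all distances. Its most frequent distances between sites, 20, 30, 6, 3 and 45 bp, had 306 to 322 pairs each against a median of 232, and the 239 pairs at the unit length were close to the 238 at 1 bp less.

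**Figure D4:**
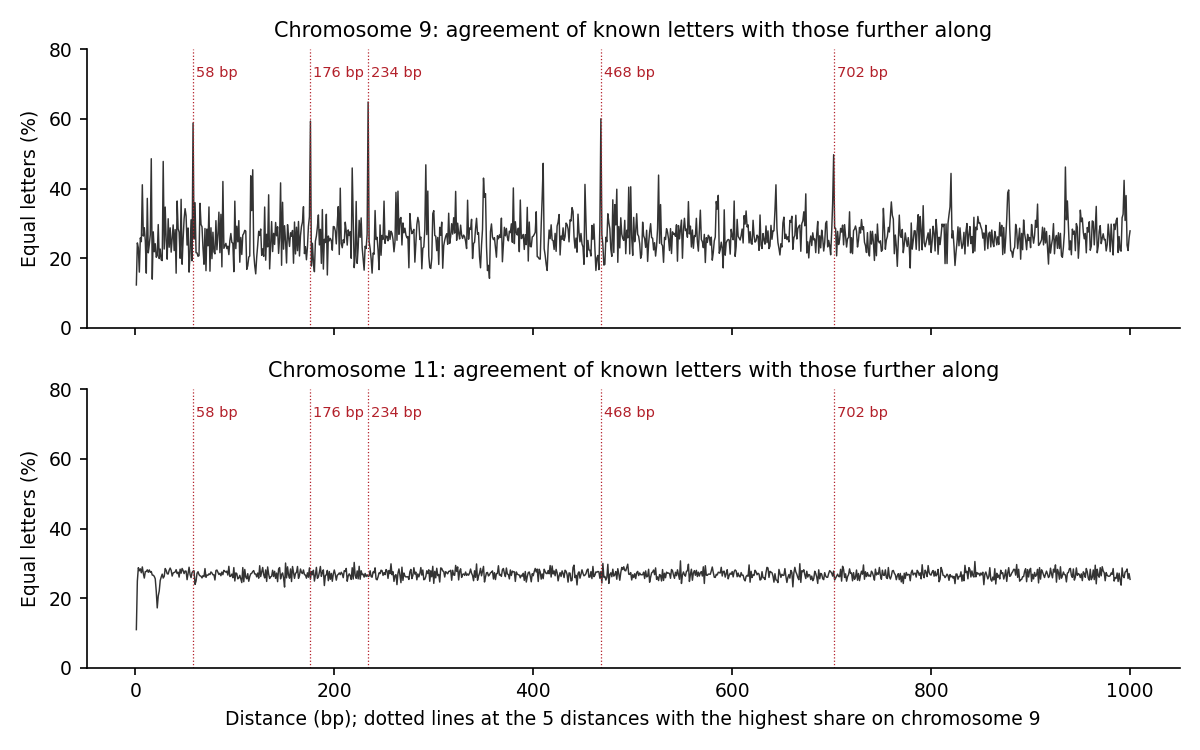
Share of equal letters (percent) between positions a given distance apart (bp), over letters fixed by listed sites, for chromosome 9 (top) and chromosome 11 (bottom). Chromosome 9 peaks at 58 and 176 bp, at their sum (64.9%) and at 468 and 702 bp, and chromosome 11 stays at or below 30.7%.

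The highest sites of chromosome 9 were a pair of CA cytosines. The plus-strand site at 3002144 and the minus-strand site at 3002167 had 22118 reads each and the class 2CH. The sources used here do not state what the class codes mean. On chromosome 9 97.8% of 2CH sites had an opposite-strand site 21 to 25 bp away, and whether the same reads were counted at both is not known. Each of them carried 4.86% of the interval's reads. The next sites were plus-strand CG cytosines of class 1CG. Position 3002983 had 10644 reads, 3025521 had 10572 and 3020493 had 10476. None of these 3 had an opposite-strand site 21 to 25 bp away. The 10 highest sites held 23.2% of the reads.

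On chromosome 11 the highest sites were CG on opposite strands. The plus-strand site at 3050378 had 5512 reads and the minus-strand site at 3050400 had 5537. The second pair lay at 3093010 with 2251 and at 3093032 with 2220 reads, and another at 3077447 with 1422 and 3077469 with 1413. In each pair the sites were 22 bp apart and nearly equal in counts, and 5 of the 6 sites carried the codes 1CG or CGCH. The fifth highest site, at 3046577 with 1746 reads, had no such partner. The highest CH site, CT at 3035325 with 1052 reads, also had one, CC at 3035347 with 1045. Such nearly equal pairs were not the rule among deep CG sites of the classes 1CG and CGCH. Of 508 such sites with at least 100 reads, 112 (22.0%) had an opposite-strand partner at the distances used for chromosome 9. The counts were within 10% of each other in 29 of these cases, and the median ratio of the counts was 12.35. The CG site at 3044928 with 1494 reads had a partner with 7 reads. The 10 highest sites held 9.39% of the reads.

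The listed letters around the highest pair of each chromosome are given below to show where the pair lies, at chr9:3002126-3002185 and chr11:3050360-3050419 of mm9, plus strand, with the dinucleotides of the pair in capitals and n for a letter that no site gives.
chromosome 9, highest pair: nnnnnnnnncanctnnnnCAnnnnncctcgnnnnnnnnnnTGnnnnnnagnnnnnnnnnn
chromosome 11, highest pair: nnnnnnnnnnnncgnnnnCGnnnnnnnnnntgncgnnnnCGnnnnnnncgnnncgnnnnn

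Over all sites and among CG sites, opposite-strand partners at 21 to 25 bp were more frequent in both intervals than elsewhere. Among CH sites the shares were close. On chromosome 9 50.2% of sites had one (47.7 to 52.6), on chromosome 11 46.2% (44.9 to 47.5), and over the other 17 intervals pooled 18.3% (17 to 19.6). Among CH sites alone the shares were 55.7% (52.9 to 58.4), 54.8% (53.3 to 56.2) and 51.3% (47.1 to 55.4). Among CG sites alone they were 27.7% (22.9 to 33.0), 16.6% (14.6 to 18.7) and 11.7% (10.6 to 12.9). How far a higher density of sites alone raises these shares was not tested. Most of the sites with a partner in both intervals were CH. Within the class 2CH the counts of the partners were exactly equal in 42.3% of cases on chromosome 9, 60.9% on chromosome 11 and 75.1% in the others. They were within 10% of each other in 53.8%, 64.0% and 77.0%. The mean reads of 2CH sites were 258.0, 13.3 and 10.8, and how far depth alone changes these shares was not tested. Where several partners lay in range, the one with the closest count was used, which favours equality.

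The class 2CG was rare in both. It held 7 sites on chromosome 9 (0.431% of sites) and 62 on chromosome 11 (1.06%), against 8.18% over the other 17 pooled. Most sites were in the CH classes, with 1CH at 54.6% and 2CH at 25.6% of sites on chromosome 9, and 36.1% and 41.4% on chromosome 11. On chromosome 11 the few 2CG sites were the deepest class, with a median of 122 reads against 63 in 1CG and 76 in CGCH. On chromosome 9 they were the shallowest, with a median of 7 against 79.5 and 27.

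CG dyads, the facing cytosines of one CG, were listed on both strands more often on chromosome 11 than on any other autosome. There 558 of 755 dyads were listed on both strands, or 73.9% (70.6 to 77.0), against 10.4% to 33.3% on the other 17. In its dense 70 kb the share was 85.1%, compared with 51% in the next 100 kb outside. On chromosome 9 the share was 33.2% (80 of 241 dyads, 27.3 to 39.5), above 16 of the other 17, whose median was 19.5%. The only higher one was chromosome 16, with 5 of 15 dyads. In the first 40 kb of chromosome 9, an end placed after the values were seen, the share was 39.0% (73 of 187). In the remaining 60 kb it was 13.0%. Where both strands were listed, their counts differed by more than 3-fold in 53.8% of the dyads on chromosome 9 and in 35.3% on chromosome 11. Over the others pooled it was 21.3%, and the effect of depth on these shares was not tested. Dyads with 1 listed strand had a median of 28 reads on that strand on chromosome 9 and 11 on chromosome 11. The sums of both strands, where both were listed, had higher medians of 306.5 and 213.5. A single strand is set against a sum here, so part of the difference is by construction. Over the others pooled the order was the same, with medians of 7 and 20.

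The Gm33862 promoter window gave the share of listed cytosines within known sequence. It has 6 CG dinucleotides, and all 12 of their cytosines were listed (73.5 to 100%), with 11 to 412 reads and a median of 114.5. The deepest were the second CG of the window, with 412 reads on the plus and 297 on the minus strand, and the first, with 350 and 165. The plus strand had more reads at every one of the 6. The least even was the fifth, at the annotated start, with 142 and 11 reads. Of 155 CH cytosines in the window 16 were listed, or 10.3% (6.02 to 16.2). Of these, 15 had 2 to 11 reads, and the exception was a minus-strand CA at base 216 with 21.2 times the reads of the next. The median over the CH sites was 4 reads.

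The same count was made in promoters further along chromosome 11. Of 146 RefSeq promoter sequences searched for up to 7 Mb from the start, 12 had a single placement with at least 12 listed sites and no contradiction, and 9 of these kept the spacing of the RefSeq annotation among themselves, Gm33862 included. In the other 8, which were Gm11946, Gm39567, Gm51881, Lif, Hormad2, Gm39572, Ankrd36 and Pkd1l1, 0 of 1221 CH cytosines were listed (0 to 0.302%). Lif encodes leukaemia inhibitory factor, the cytokine that keeps mouse embryonic stem cells undifferentiated in culture. The median reads of their listed CG sites ran from 10 to 30, where Gm33862 had 114.5. Their CG cytosines were listed in 40.6% to 100% of cases, a share set in part by the demand for 12 sites. An unlisted cytosine may have had reads below a listing minimum that the sources used here do not state.

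**Figure D5:**
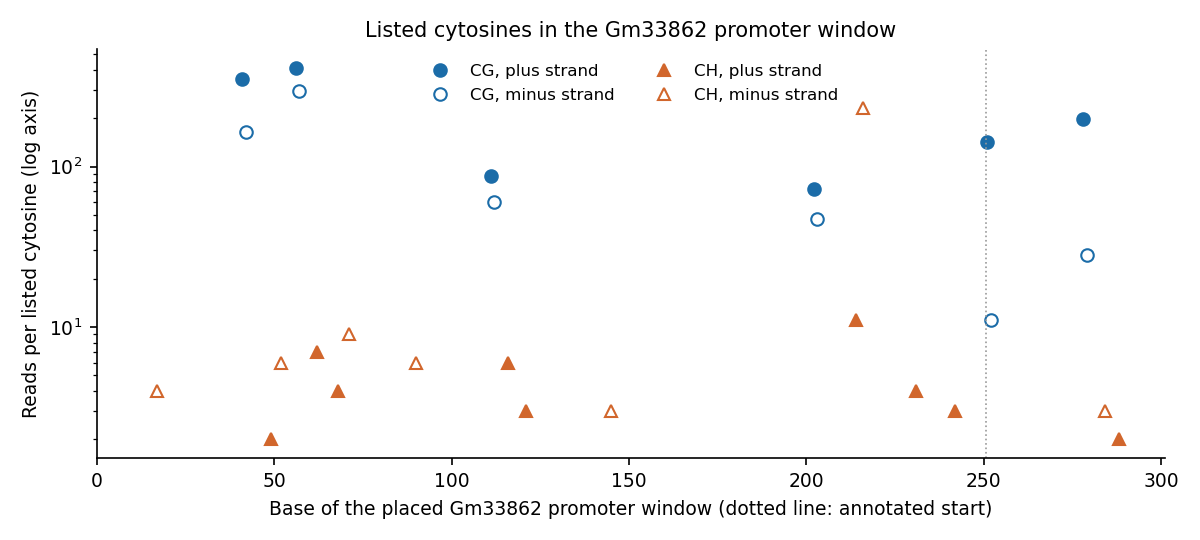
Reads per listed cytosine (log axis) along the 300 bases of the Gm33862 promoter window on chromosome 11, with CG as circles and CH as triangles, filled for the plus strand and open for the minus strand; the dotted line marks the annotated start. The CG cytosines carry 11 to 412 reads and the CH cytosines 2 to 11, apart from 1 that stands at the level of the CG cytosines.

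No library without glucosylation was analysed here, so reads at listed cytosines, CG or CH, cannot be told apart from cuts at cytosines without 5hmC.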

How the data were processed

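5hmC was profiled in genomic DNA of E14 cells in 2 libraries. Per the labels' protocols, 100 ng of DNA was glucosylated and cut with AbaSI, adapters were ligated, fragments were sheared to about 300 bp, and libraries had 16 PCR cycles. Bowtie, CASAVA 1.8.2 and the build mm9 are named per the submitters' processing notes. The sources used here do not state the filters, how PCR copies were handled, how the libraries were joined or how reads were assigned to cytosines. The authors deposited whole-number read counts per listed cytosine, unscaled and at least 2, in 1 column for both libraries, so no test between samples and no fit without a library was possible.

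Positions were made 1-based. Sites, contexts, classes, dyads, opposite-strand partners and spacings were counted in the 100 kb intervals of 19 autosomes. Shares have exact Clopper-Pearson intervals at 95%, which cover counting error only, as PCR reads are not independent molecules. The members and the choice of measures were made with earlier results of these data known. The named features are the 5 sites, the CH site, the 3 bins of 1 kb and the 5 spacings with the most reads or pairs, the first and last sites, and the 3 other autosomes with the most reads. The satellite unit length was chosen for study from textbook knowledge, and it is also the distance with the most equal letters on chromosome 9. Letter agreement, the 40 kb and 30 kb block ends and the placement of RefSeq sequences were added after seeing the data. No mm9 genome or annotation was used. Functions were tested on simulated sites. Python 3.11.15, numpy 2.4.6, pandas 2.3.3, scipy 1.17.1 and numba 0.67.0 were used.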

Additional observations from a re-analysis of the deposited data

How the results depend on the processing

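Over 14 results and 66 alternatives, 34 values stayed within the counting interval of a share, or within 1.5 times of a count or ratio, and 32 moved. What caused the moves was not tested unless the setting removes sites by construction. Chromosome 9: relative to the median of the other autosomes the reads were 539.2 times in the first 50 kb, 22.1 times without the top 0.1% of sites and 10.1 times with each site counted once, in place of 235.3. The CG share of sites was 16.8% in the first 50 kb and 26.2% without the classes 2CG and 2CH. The CG to CH ratio of mean reads was 0.992 without the top 0.1% of sites, in place of 2.87. Same-strand sites at the satellite unit length were 7.91% and 7.33% with minimums of 5 and 10 reads, and 7.70% with the same dinucleotide at both sites, a setting chosen after seeing the data. The 10 highest sites held 20.4% of reads without the classes 2CG and 2CH and 3.82% without the top 0.1%. Chromosome 11: the reads were 46.6 times the median without the top 0.1% of sites and 36.2 times with each site counted once, in place of 134.2. Listed sites numbered 2053 with a minimum of 10 reads, 2094 in the first 50 kb and 3352 without these classes. The CG share of sites was 30.1% and 54.2% with minimums of 5 and 10 reads, 24.5% in the first 50 kb and 37.3% without these classes. The CG to CH ratio was 4.11 with a minimum of 10 reads and 5.95 without the top 0.1%. Dyads on both strands were 59.8% in the first 50 kb. Same-strand sites at the satellite unit length were 3.04% and 1.66% with minimums of 5 and 10 reads, 2.71% without these classes and 1.20% with the same dinucleotide. The 10 highest sites held 9.59%, 10.1%, 11.9%, 11% and 1.85% of reads with the minimums of 5 and 10, in the first 50 kb, without these classes and without the top 0.1%.

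No paired analysis was possible because the columns carry no replicate numbers. No setting without a replicate could be run, as both libraries share 1 column. A higher minimum removes the shallow CH sites of chromosome 11, so its CG share describes other sets of sites.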
